A study of Mus musculus with 47 samples.

Results

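The Hox genes were followed as a gene family through bulk RNA-seq of liver, lung and brain of E18.5 mouse embryos (shortly before birth). Members were all genes of the count table whose symbol is Hoxa, Hoxb, Hoxc or Hoxd followed by a number: 33 of 20456 genes. The rule used names alone, so no measured value chose the members. The other 6 Hox genes of the annotation (Hoxa11, Hoxc11, Hoxc12, Hoxd4, Hoxd11 and Hoxd12) were not analysed here, which leaves 33 of 39. The Hoxa cluster gave 10 genes (chromosome 6, minus strand), the Hoxb cluster 10 (chromosome 11, 96194316 to 96368256, plus strand), the Hoxc cluster 7 (chromosome 15, 102921103 to 103036852, plus strand) and the Hoxd cluster 6 (chromosome 2, 74668310 to 74765142, plus strand), all in GRCm38 coordinates.

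Hox genes encode homeodomain transcription factors that give cells their position along the head-to-tail axis. Within a cluster the genes lie in the order of their numbers, and low-numbered genes are known to be used further towards the head than high-numbered ones, a relation called collinearity. Genes that share a number in different clusters are paralogues. Trithorax and MLL proteins are known to keep Hox clusters active, Polycomb proteins to keep them silent, and retinoic acid to induce the low-numbered end.

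The 47 libraries came from homozygous embryos of heterozygous intercrosses and from their wild-type littermates. The alleles were made in C57BL/6N zygotes and the founders backcrossed to C57BL/6J. Daxx is a chaperone of the histone variant H3.3, and the germline knock-in alleles replace 1 residue in every cell. In the authors' assays S226A abolished binding to H3.3 and Y130A binding to the partner protein Atrx. They add that loss of Atrx binding may be incomplete, as some replicates kept a faint band. They also found less Daxx protein with S226A and more with Y130A, most clearly in embryonic fibroblasts. Each tissue had 4 S226A embryos with 4 wild-type embryos of their litters and 4 Y130A embryos with 4 wild-type embryos of theirs, except lung, where 3 wild-type embryos of Y130A litters remained after the authors removed 1. Wild-type embryos carry no engineered allele, a library is a tissue of 1 embryo, and a tissue mixes many cell types, so that fewer Hox-expressing cells and less Hox RNA per cell cannot be told apart.

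Libraries of S226A litters held 15722147 to 26190403 counted reads (n = 24) and those of Y130A litters 36351738 to 54885020 (n = 23), so low Hox genes were read more precisely in the second set. Reads on the 33 Hox genes numbered 1712 to 4645 per lung library, 123 to 475 per liver library and 11 to 3676 per brain library. Tissue markers matched the labels: summed over 8 hepatocyte genes, liver libraries held 149700 to 217300 CPM (counts scaled to a common library total, with TMM factors) and the other tissues at most 1282, while the 8 neuron genes reached 3654 to 4755 CPM in brain and at most 23.2 elsewhere. Daxx itself ran from 27.2 to 50.9 CPM over the wild-type libraries of all tissues and from 28.2 to 43.6 CPM over the mutant ones. Since both alleles are point changes, the level of Daxx mRNA does not check the genotype.

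Promoters of 3 genes stand for the patterns described here: Hoxa5 and Hoxb4, the genes with the highest level per kilobase of full exon length in lung and liver, and Hoxa9, the member called higher in liver than in lung. Each is the 250 bases before the start in RefSeq (GRCm38.p6), written on the gene's own strand, with every CG dinucleotide in capitals. None of these bases lies in an annotated exon. The Hoxa5 bases are chr6:52204588-52204837 (minus strand), those of Hoxb4 chr11:96318017-96318266 (plus strand) and those of Hoxa9 chr6:52227371-52227620 (minus strand), the last in front of a start that lies inside the annotated span of Hoxa9.
Hoxa5: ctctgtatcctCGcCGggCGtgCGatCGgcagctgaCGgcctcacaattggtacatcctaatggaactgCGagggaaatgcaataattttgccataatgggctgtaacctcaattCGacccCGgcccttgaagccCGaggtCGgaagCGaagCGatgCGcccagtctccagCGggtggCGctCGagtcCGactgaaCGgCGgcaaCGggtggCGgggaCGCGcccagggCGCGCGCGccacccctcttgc
Hoxb4: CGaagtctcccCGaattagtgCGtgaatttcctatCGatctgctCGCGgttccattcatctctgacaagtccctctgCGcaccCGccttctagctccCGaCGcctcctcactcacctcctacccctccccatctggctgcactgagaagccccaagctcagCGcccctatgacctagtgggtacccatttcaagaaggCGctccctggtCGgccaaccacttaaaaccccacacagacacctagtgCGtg
Hoxa9: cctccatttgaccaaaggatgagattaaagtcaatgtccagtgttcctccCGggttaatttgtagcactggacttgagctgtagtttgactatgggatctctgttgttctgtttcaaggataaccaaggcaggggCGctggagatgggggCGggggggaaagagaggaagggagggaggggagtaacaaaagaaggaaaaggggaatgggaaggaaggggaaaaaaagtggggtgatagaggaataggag
The printed bases hold 28 CG dinucleotides for Hoxa5, 14 for Hoxb4 and 3 for Hoxa9. RefSeq windows of 300 bases (250 before and 50 after the start) were found for 18 of the 33 Hox genes, as 19 promoters. Their median GC content was 59.3% (range 42.3% to 81.0%) beside 52.7% over 32851 promoters, and they held a median of 20 CG dinucleotides (4 to 45) beside 7. The letters AGGTCA, the core of the element bound by retinoic acid receptors, were found on either strand in 6 of the 19 windows (Hoxd10, Hoxd8, Hoxd3, Hoxa5, Hoxb4 and Hoxc4) and in 16.3% of all windows. The match of Hoxa5 does not lie within its printed bases. The 250 bases before the Hoxc4 start all lie in annotated exon. The letters TGATNNAT, a form of the site shared by Hox and Pbx proteins, were in 3 (Hoxa2, Hoxb8 and Hoxb1) beside 8.85% of all, and TATAAA in 3 (Hoxd13, Hoxa10 and Hoxb8) beside 13.6% of all. The searched letters do not overlap each other, and a match describes the letters only.

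Wild-type lung used the most Hox RNA, from the Hoxa and Hoxb clusters almost alone. The 33 genes summed to 88.3 ± 4.00 CPM in wild-type lung (SD, n = 7; range 84.7 to 96.1), 28.0 ± 24.4 CPM in brain (SD, n = 8; 0.462 to 65.5) and 9.93 ± 1.68 CPM in liver (SD, n = 8; 8.76 to 12.6). Lung and liver libraries did not overlap and lay close together within each tissue, whereas brain libraries reached below the lowest liver library and stayed under every lung library. Hoxa took 53.8% ± 1.58 of the summed Hox CPM in lung and Hoxb 44.1% ± 1.99 (SD, n = 7), which left 0.559% ± 0.427 for Hoxc and 1.5% ± 0.982 for Hoxd. In brain the median share was 14.2% for Hoxc (0% to 21.2%) and 4.72% for Hoxd (3.02% to 18.2%, n = 8). Of these brain libraries 3 held only 11, 52 and 85 Hox reads, and they widen the range of every share in brain. These shares are of reads, not corrected for gene length, and are a description without a test. They leave out the Hox genes that were not analysed.

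Paralogues 1 to 5 took most of the Hox RNA in each tissue. In wild-type lung 16 of the 33 genes had a read in every library and 7 had none in any. In liver 6 had a read in every library and 9 had none, and in brain 4 and 3. Paralogues 9 to 13, the genes of the lower trunk, limbs and tail, took 0.509% ± 0.403 of the Hox CPM in lung (SD, n = 7) and 8.20% ± 5.67 in liver (SD, n = 8), and in brain a median of 0.155% (0% to 7.06%, the highest in the library of 85 reads). Paralogues 4 and 5 took 50.5% ± 2.13 in lung, 37.6% ± 6.86 in liver and a median of 53.2% (0% to 57.5%) in brain. Paralogues 1 to 3 took 40.7% ± 2.99 in lung, 48.0% ± 11.8 in liver and a median of 38.5% (28.0% to 81.8%) in brain. Paralogues 6 to 8 took 8.25% ± 1.64 in lung, a median of 10.6% (5.77% to 18.2%) in brain and 6.17% ± 6.33 in liver, where Hoxa9 (0.131 ± 0.0941 CPM per kilobase) had a higher mean than Hoxa6 (0.00940 ± 0.0266) and Hoxa7 (0.0440 ± 0.0733; SD, n = 8). A gene with no read in a tissue may still be present under the depth of these libraries. The share of paralogues 9 to 13 leaves out Hoxa11, Hoxc11, Hoxc12, Hoxd11 and Hoxd12, which were not analysed.

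**Figure D1:**
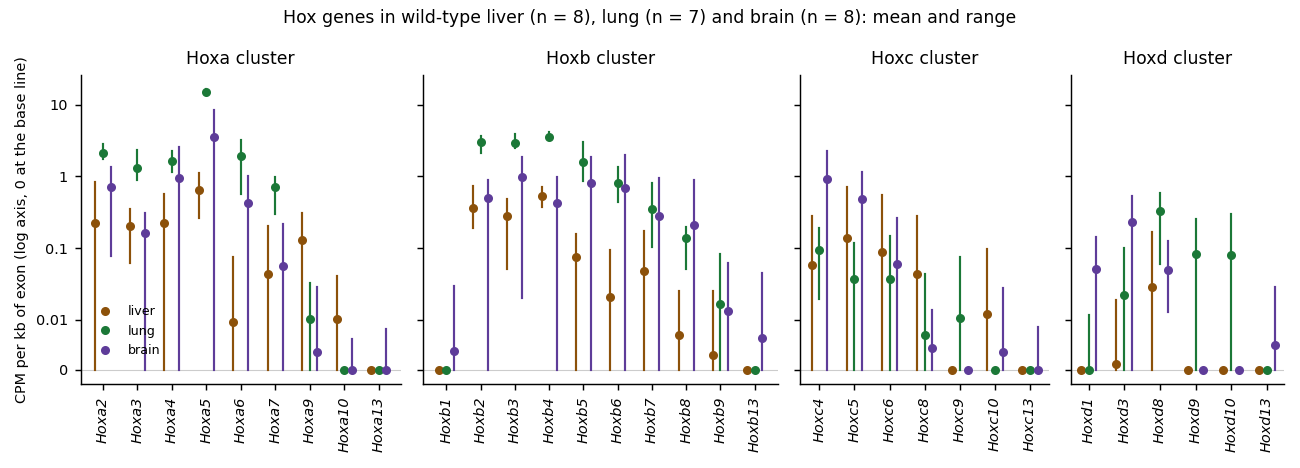
Level of each Hox gene reported here by name in wild-type liver (n = 8), lung (n = 7) and brain (n = 8), as CPM per kilobase of exon on a log axis; points are means, bars run from the lowest to the highest library, and values under 0.002 sit on the base line. Genes are in the order of their numbers in each cluster. Lung points stand highest from Hoxa2 to Hoxa7 and from Hoxb2 to Hoxb7, with Hoxa5 at 15, while brain points stand highest at Hoxc4 and Hoxc5.

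Per kilobase of exon, Hoxa5 was the highest Hox gene of all 3 tissues. Hoxa5, which is known to be needed for lung and trachea formation, stood at 15 ± 0.923 CPM per kilobase in lung (SD, n = 7), 3.55 ± 3.25 in brain and 0.651 ± 0.274 in liver (SD, n = 8 each). In lung it was followed by Hoxb4 at 3.54 ± 0.385, Hoxb2 at 2.97 ± 0.624, Hoxb3 at 2.95 ± 0.482 and Hoxa2 at 2.15 ± 0.449 CPM per kilobase. Hoxb4 is known for its effect on blood stem cells, and Hoxa2 and Hoxb2 for patterning the hindbrain and the tissue that leaves it. Hoxa5 was above Hoxb4 in 7 of 7 lung libraries and their ranges did not overlap. Every further pair of neighbours in the order of the 10 highest lung genes overlapped, so their order is not firm.

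In brain Hoxb3, at 0.967 ± 0.764 CPM per kilobase, Hoxa4 at 0.941 ± 0.886, Hoxc4 at 0.921 ± 0.834 and Hoxb5 at 0.812 ± 0.747 (SD, n = 8) followed Hoxa5, and all neighbours overlapped. In liver Hoxb4, at 0.535 ± 0.130 CPM per kilobase, Hoxb2 at 0.359 ± 0.176 and Hoxb3 at 0.279 ± 0.129 (SD, n = 8) were among the next below Hoxa5, again with overlap between neighbours. Hoxb3 shares 52.9% of its exon bases with the antisense transcript Hoxb3os, Hoxd3 shares 62.8% and Hoxb2 27.3% with overlapping transcripts. The counting is not stated to use strand, so the levels of these genes are uncertain. For Hoxd3 62.3% of the exon bases are shared on the same strand, with Hoxd4 among others. A strand setting would not tell those apart. Per kilobase of unshared exon Hoxb3 stood at 6.27 CPM in lung and 0.593 in liver and Hoxb2 at 4.08 in lung, above Hoxb4 (3.54 and 0.535) and below Hoxa5.

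Of the 33 genes, 21 passed the filter on low counts and were tested. A gene passed if enough libraries of any tissue held it. Members seen only or mostly in 1 tissue entered because of that tissue. Their direction in comparisons with it is thus not independent of the filter. Those left out (Hoxa10, Hoxa13, Hoxb1, Hoxb9, Hoxb13, Hoxc8, Hoxc9, Hoxc10, Hoxc13, Hoxd1, Hoxd10 and Hoxd13) held 1 to 54 reads each over all 47 libraries. In what follows a gene is called where edgeR's quasi-likelihood test gives a Benjamini-Hochberg adjusted p below 0.01 over 16892 genes, the log2 fold change is beyond 1 and its standard error is below 1. Per-library values are normalised counts, that is, counts scaled to a common library size of 29553745.

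Between wild-type lung and brain 11 of the 21 Hox genes were called, 10 higher in lung and 1 higher in brain. Over all tested genes 48.8% were called, 25.7% higher in lung and 23.1% higher in brain. The median log2 fold change was 1.65 over the 21 Hox genes and -0.02 over all genes. From the Hoxa cluster the genes higher in lung included Hoxa2, Hoxa3, Hoxa5, Hoxa6 and Hoxa7, from Hoxb they were Hoxb2, Hoxb3 and Hoxb4, and from Hoxd it was Hoxd8.

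Hoxa7, a trunk gene, had 25.2, 61.1 and 84.5 normalised counts in lung and 0, 0.80 and 18.4 in brain (lowest, median and highest). Lung and brain did not overlap, and the log2 fold change was 3.62 ± 0.703 (SE; adjusted p = 1.14e-05). Hoxb4 had 241, 259 and 320 normalised counts in lung and 0, 36.6 and 75.4 in brain. Its groups did not overlap either, with a log2 fold change of 3.17 ± 0.538 (SE; adjusted p = 1.11e-06; exact permutation p = 0.000466, two-sided, unadjusted). For Hoxa3, which patterns the throat glands, the log2 fold change was 2.97 ± 0.525, for Hoxd8 2.81 ± 0.685, for Hoxb2 2.58 ± 0.511 and for Hoxa6 2.18 ± 0.667 (SE). The smallest of the called differences were those of Hoxa5 (2.09 ± 0.628), Hoxa2 (1.65 ± 0.490) and Hoxb3 (1.63 ± 0.520).

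Hoxc4, which is used in the lower hindbrain and neck, was the member higher in brain. It had 1.48, 8.19 and 14.6 normalised counts in lung and 0, 79.9 and 171 in brain, a log2 fold change of -3.26 ± 0.965 (SE; adjusted p = 0.00216). The groups overlapped, because the lowest brain library held none, and the exact permutation p was 0.0859 (two-sided, unadjusted). A wild-type lung library held at most 15 reads of Hoxc4 and a brain library up to 324. A gene seen mostly in brain passes the filter on low counts through brain, so this direction is not independent of the filter. Most tissues of an embryo are paired. With the embryo as a block, 7 Hox genes were called in place of 11, and Hoxa2, Hoxb3, Hoxc4 and Hoxd8 were lost. Here and below the fit with this block held the wild-type libraries alone. It thus differs from the main fit in more than the block. Within the wild types of 1 litter set 5 were called in each set, and Hoxa2, Hoxa5, Hoxa6, Hoxc4 and Hoxd8 in neither. The Hoxc4 call also ended when any 1 of the 7 wild-type lungs was left out (log2 fold change -3.56 to -3.09) and with DESeq2, each time because the standard error passed 1. DESeq2 called 9 Hox genes, all higher in lung, and Hoxa5 was the other one lost.

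Between wild-type lung and liver 11 of the 21 Hox genes were again called, 10 higher in lung and Hoxa9 higher in liver. Over all tested genes 42.6% were called, 23.7% higher in lung and 18.9% higher in liver, and the median log2 fold change was 3.13 over the Hox genes beside 0.08 over all genes. The 10 were Hoxa2, Hoxa3, Hoxa4, Hoxa5, Hoxa7, Hoxb2, Hoxb3, Hoxb4, Hoxb5 and Hoxd8. Within the wild types of 1 litter set 4 (S226A litters) and 6 (Y130A litters) were called, and Hoxa4, Hoxa5, Hoxa9, Hoxb5 and Hoxd8 in neither. The comparison shares its lung libraries with the one against brain.

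Hoxa5 had 777, 833 and 930 normalised counts in lung and 14.4, 34.6 and 61.6 in liver (lowest, median and highest). Every lung library was above every liver library, and the log2 fold change was 4.52 ± 0.745 (SE; adjusted p = 7.34e-07; exact permutation p = 0.000155, the smallest that 7 against 8 libraries can give). Hoxb5, the neighbour of Hoxb4 and a paralogue of Hoxa5, had 70.2, 141 and 251 normalised counts in lung and 0, 6.19 and 12.7 in liver, a log2 fold change of 4.27 ± 0.864. Hoxa7 differed by 4.32 ± 0.804, Hoxa2 by 4.28 ± 0.649, Hoxd8 by 3.91 ± 0.829, Hoxb3 by 3.37 ± 0.582, Hoxa4 by 3.13 ± 0.724, Hoxb2 by 3.05 ± 0.538, Hoxb4 by 2.73 ± 0.533 and Hoxa3 by 2.67 ± 0.528 on the log2 scale (SE). Without liver wild type of S226A litters replicate 4 the calls of Hoxa7 (6.21) and Hoxd8 (5.11 on the log2 scale) ended, since their standard errors passed 1. Hoxa6, Hoxb6, Hoxb8 and Hoxd9 met the criteria on adjusted p and fold but not that on the standard error. Wild-type liver held 1 read of Hoxa6, 11 of Hoxb6, 2 of Hoxb8 and none of Hoxd9 in all, and for Hoxa6, Hoxb6 and Hoxb8 lung and liver libraries did not overlap (exact permutation p = 0.000155 each, unadjusted).

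Hoxa9, which is known for its use in blood stem and progenitor cells, ran the other way. It had 0, 19.4 and 50.7 normalised counts in liver and 0, 0 and 5.35 in lung, with reads in 7 of 8 liver and 3 of 7 lung libraries. No wild-type lung library held more than 9 reads of it. A gene seen mostly in liver passes the filter on low counts through liver, so this direction is not independent of the filter. The log2 fold change of lung against liver was -3.75 ± 0.899 (SE; adjusted p = 0.000353), and the ranges overlapped at 0 (exact permutation p = 0.00544, two-sided, unadjusted). Leaving out lung replicate 1 of the S226A litters or replicate 2 or 3 of the Y130A litters ended the call through the standard error, at log2 fold changes of -5.18 to -3.82, and DESeq2, which called the other 10, did not call it. With the embryo as a block 9 Hox genes were called between lung and liver, and Hoxa9 (-3.34 ± 1.15) and Hoxb5 (4.26 ± 1.04; log2 fold change, SE) were not. The paralogue Hoxd9 had no read in any wild-type liver library, and Hoxb9 had 1 in all.

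Between wild-type brain and liver 6 of the 21 Hox genes were called, all higher in brain. Over all tested genes 56.1% were called, 29.2% higher in brain and 26.9% higher in liver, with a median log2 fold change of 2.22 over the Hox genes and 0.08 over all genes. The called genes were Hoxc4 (4.09 ± 0.993), Hoxb5 (3.46 ± 0.848), Hoxa2 (2.64 ± 0.667), Hoxa5 (2.43 ± 0.721), Hoxa4 (2.22 ± 0.715) and Hoxb3 (1.74 ± 0.564; log2 fold change, SE). The Hoxc4 call ended when any 1 of the 8 livers or of 5 of the 8 brains was left out (3.78 to 6.28), and DESeq2 called the other 5. The exact permutation test on Hoxa5 gave p = 0.742 (unadjusted), since brain ran from 0 through a median of 230 to 464 normalised counts and spanned the liver range. At a pseudocount of 0.1 in place of 1 that difference turned its direction (p = 0.978, exact permutation). With only the libraries compared in the fit, Hoxa2 and Hoxb5 were called. Hoxa6, Hoxb6, Hoxb8, Hoxd3 and Hoxa9 met the criteria on adjusted p and fold but not that on the standard error. Of these Hoxa9 ran the other way, with 9 reads in 1 of 8 brain libraries (-5.80 ± 1.03; log2 fold change, SE; adjusted p = 5.00e-06 with edgeR; exact permutation p = 0.0014, unadjusted). A gene seen mostly in 1 of these tissues passes the filter through it. The directions of Hoxa9 and Hoxc4 are thus not independent of the filter. With the embryo as a block only Hoxb5 was called (3.03 ± 0.992; adjusted p = 0.00900), and within the wild-type embryos of S226A litters none was.

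**Figure D2:**
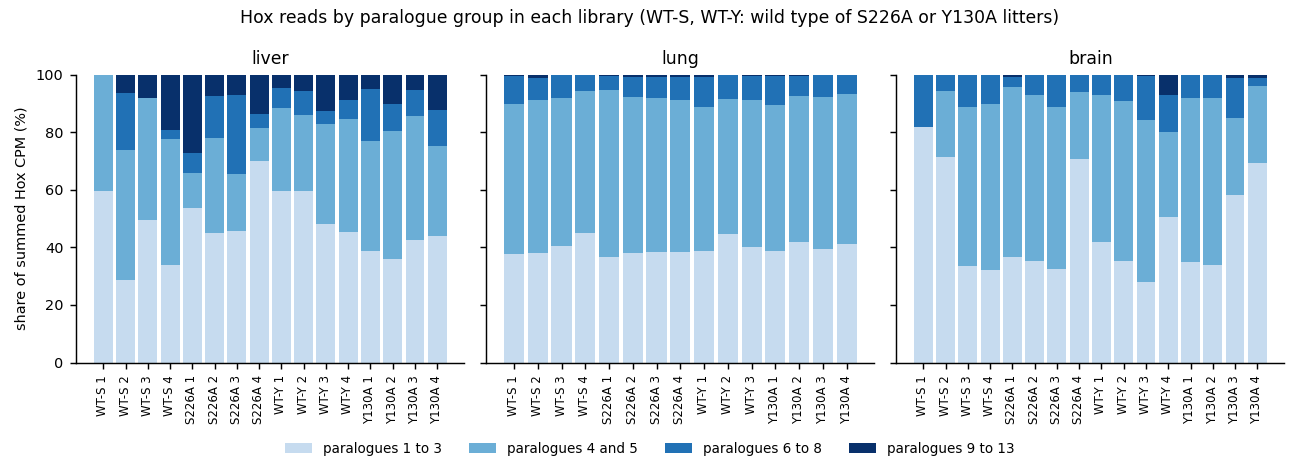
Share of the summed Hox CPM (%) taken by paralogues 1 to 3, 4 and 5, 6 to 8 and 9 to 13 in each of the 16 liver, 15 lung and 16 brain libraries (numbers are replicates). Lung libraries resemble each other, with 37.8% to 44.9% from paralogues 1 to 3 in wild type, while 6 brain libraries stand out with 50.6% to 81.8%.

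The wide range of Hox levels in brain came from 6 of its 16 libraries, which had 11 to 408 Hox reads against 888 to 3676 in the other 10. They were wild type of S226A litters replicates 1 and 2, S226A replicate 4, wild type of Y130A litters replicate 4, and Y130A replicates 3 and 4. Their summed Hox level was 0.462 to 7.30 CPM, against 26.6 to 65.5 CPM in the other 10, with no value between. These libraries were set apart by another measure, the sum over 10 markers of hindbrain and spinal cord, which was 24.7 to 34.9 CPM in the 6 and 40.9 to 54.1 CPM in the other 10. The dividing value of 40 CPM was chosen after the data were seen.

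Among those markers Slc6a5, the glycine transporter of brain stem and spinal cord neurons, was at 0.378 to 4.08 CPM in the 6 libraries and 6.78 to 14.5 in the others. Lbx1, of dorsal hindbrain and cord neurons, was at 0 to 0.591 and 0.962 to 2.05 CPM. Lmx1b and Tlx3 did not overlap either, while Isl1 (17.2 to 21.8 against 18.4 to 22.2 CPM), Tph2 (3.78 to 6.92 against 5.26 to 8.75), Chat, Phox2a and Fev did. Summed forebrain markers were 284 to 382 CPM in the 6 and 250 to 346 in the others, and those of midbrain and cerebellum 172 to 232 and 189 to 279, so these overlapped. The part of the tissue sampled in each library, as a source of the Hox differences, was not tested.

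**Figure D3:**
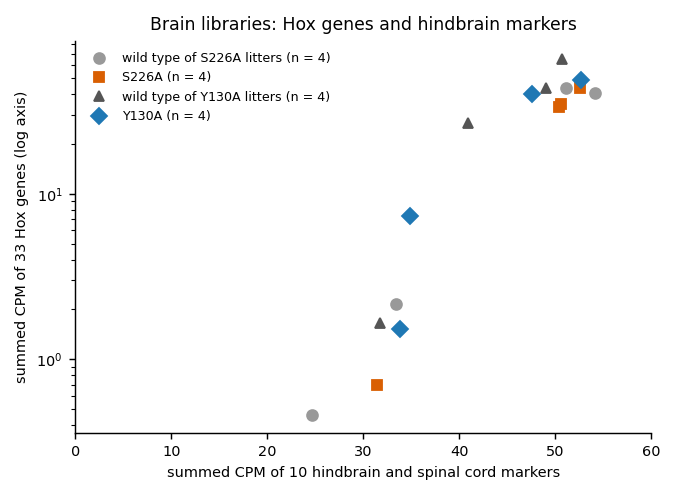
Summed CPM of the 33 Hox genes (log axis) against the summed CPM of 10 hindbrain and spinal cord markers in the 16 brain libraries, 4 per group. The 6 libraries under 40 CPM of markers lie at 0.462 to 7.30 CPM of Hox genes and come from all 4 groups.

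In 13 of the 21 tested Hox genes all 10 other brain libraries were above all 6: Hoxa2, Hoxa3, Hoxa4, Hoxa5, Hoxa6, Hoxb2, Hoxb3, Hoxb4, Hoxb5, Hoxb6, Hoxc4, Hoxc5 and Hoxd3. Over all 16892 tested genes this held for 0.272%. Hoxa5 had 0 to 18.51 normalised counts in the 6 and 172 to 464 in the others, and Hoxc4 0 to 9.52 and 55.1 to 171. Hoxa2 had 4.05 to 35.4 normalised counts against 42.0 to 78.4, and Hoxb3 2.44 to 49.7 against 136 to 234. Paralogues 1 to 3 took 50.6% to 81.8% of the Hox CPM in the 6 libraries and 28.0% to 41.7% in the others, and paralogues 4 and 5 took 0% to 29.4% and 51.3% to 59.0%. Hoxd8 was at 1.2 to 7.40 normalised counts in the 6 and at 0 to 10.01 in the others, and did not follow this split.

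Without the 6 brain libraries, an alternative chosen after the data were seen, 11 Hox genes were again called between lung and brain, now 8 higher in lung and 3 higher in brain, beside 45.4% of all genes. Hoxc5 (-4.34 ± 0.945) and Hoxd3 (-4.24 ± 0.925) joined Hoxc4 (-3.94 ± 0.815; log2 fold change of lung against brain, SE) on the side of brain, while Hoxa2 and Hoxb3 were no longer called. Wild-type lung held at most 9 reads of Hoxc5 or Hoxd3 in a library. Genes seen mostly in brain pass the filter through brain, so this direction is not independent of the filter. The level of Hoxd3 is also uncertain because of its shared exon bases. Between brain and liver 12 were called in place of 6, all higher in brain and beside 52.9% of all genes, with the largest differences for Hoxb6 (6.82 ± 0.765), Hoxb8 (6.14 ± 0.962) and Hoxa6 (6.08 ± 0.726; SE). Between lung and liver, in a fit that left the 6 out of the shared estimate of the spread, 15 were called in place of 11, 14 of them higher in lung and beside 41.5% of all genes, and the standard error of Hoxa5 went from 0.745 to 0.239.

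**Figure D4:**
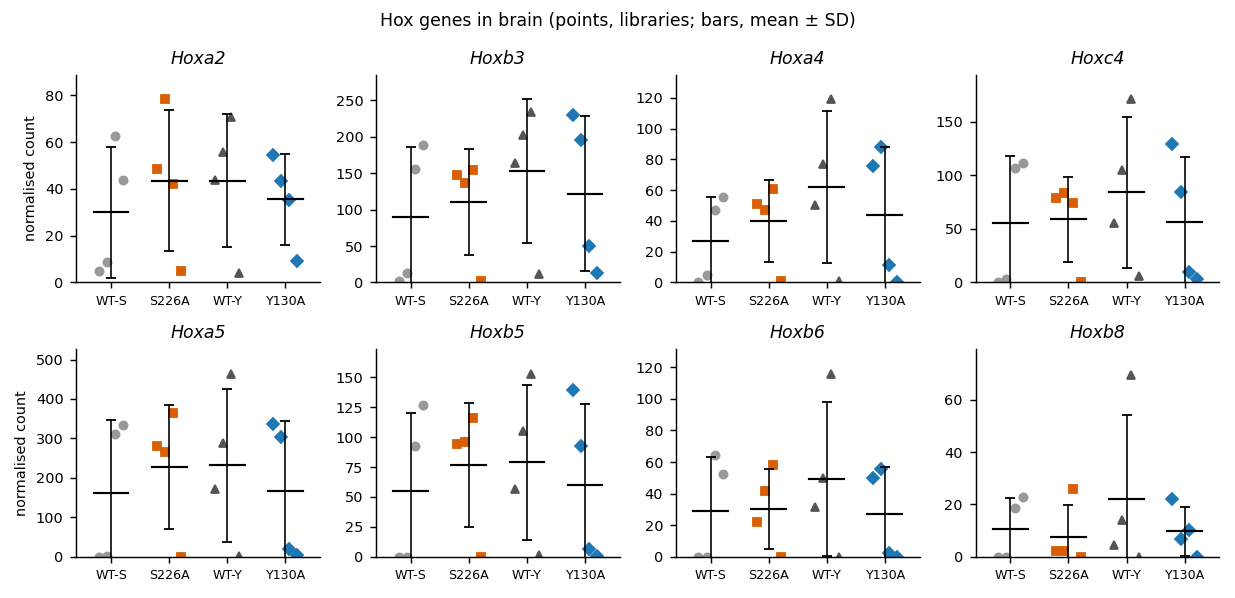
Normalised counts of 8 Hox genes in brain by group (WT-S and WT-Y, wild type of S226A and of Y130A litters); points are the 4 libraries of a group, bars the mean ± SD, drawn down to 0 at the lowest. Every group holds libraries near 0 and libraries far above, except for Hoxb8, which spreads more evenly.

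Against wild-type littermates no Hox gene was called in S226A brain or Y130A brain. Over all genes 0.124% and 0% were called. Hoxa5 had 0, 2.46, 310 and 335 normalised counts in the 4 wild-type brains of S226A litters and 281, 265, 365 and 0 in the 4 S226A brains. It had 172, 289, 464 and 1.73 in the wild-type brains of Y130A litters and 337, 304, 18.51 and 5.41 in the Y130A brains. Low libraries thus lay on both sides of each comparison and the groups overlapped, with log2 fold changes of 0.48 ± 0.876 for S226A and -0.48 ± 0.843 for Y130A (SE; adjusted p = 1.00 each).

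At an unadjusted p under 0.05 no Hox gene passed in S226A brain and 1 in Y130A brain, Hoxa9, which rested on 9 reads in a single wild-type library. Over all genes 2.27% and 2.22% passed. The numbers with DESeq2 were 1 and 1, and none was called. The median log2 fold change over the 21 genes was 0.10 in S226A brain and -0.57 in Y130A brain, beside 0.00 over all genes. No tested Hox gene had groups that did not overlap in either brain comparison, where 2.48% (S226A) and 4.75% (Y130A) of all genes did. Without the 6 libraries, which left 2 or 3 per group, Hoxa5 differed by -0.09 ± 0.352 in S226A brain and 0.05 ± 0.344 in Y130A brain (log2 fold change, SE), and again none was called.

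Lung gave the most precise comparison with the mutants, and no Hox gene was called there either. Over all genes 0.302% were called in S226A lung and 0% in Y130A lung. Hoxa5 had 930, 837, 833 and 777 normalised counts in wild-type lungs of S226A litters and 947, 727, 846 and 922 in S226A lungs. It had 787, 802 and 846 in the 3 wild-type lungs of Y130A litters and 689, 767, 889 and 749 in Y130A lungs. All 4 groups overlapped. Because the brain libraries widen the shared estimate of the spread (the standard error of the S226A difference of Hoxa5 was 0.828), the same lungs were also fitted alone, which gave log2 fold changes of 0.01 ± 0.118 for S226A and -0.07 ± 0.0938 for Y130A (SE).

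Hoxb4 gave 0.05 ± 0.160 for S226A and 0.13 ± 0.121 for Y130A in that fit of lungs alone (log2 fold change, SE), and Hoxb2 0.06 ± 0.194 and -0.09 ± 0.111. Over the Hox genes that passed the filter there, the log2 fold changes ran from -0.55 to 0.15 in S226A lung (13 genes) and from -1.37 to 0.37 in Y130A lung (16 genes), with no call. At an unadjusted p under 0.05 there, Hoxb3 passed in S226A lung (-0.44 ± 0.188) and Hoxa2 (-0.51 ± 0.188) and Hoxb8 (-1.37 ± 0.552; log2 fold change, SE) in Y130A lung, beside 6.55% and 2.66% of all genes. In the fit of all libraries no Hox gene passed an unadjusted p under 0.05 in either mutant with edgeR or DESeq2, where 16.2% and 2.92% of all genes passed with edgeR, and the median log2 fold change over the 21 genes was -0.07 in both, beside 0.00 over all genes. The standard error of Hoxa5 is small for both mutants, whereas for genes of few reads, such as Hoxb8 with a standard error of 0.552 in Y130A lung, a change beyond 1 on the log2 scale was not resolved.

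In S226A lung 1 of the 21 tested Hox genes had groups that did not overlap, beside 3.81% of all genes. It was Hoxb5, with 141, 145, 152 and 251 normalised counts in wild type and 121, 136, 82.6 and 134 in S226A. Its difference was -0.52 on the log2 scale of normalised count plus 1 (exact permutation p = 0.029, the smallest that 4 against 4 can give; edgeR adjusted p = 0.860). In Y130A lung there were 3, beside 4.16% of all genes: Hoxa2, Hoxb6 and Hoxb8.

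Hoxa2 had 118, 149 and 140 normalised counts in wild type and 100, 107, 93.7 and 78.9 in Y130A lung. Hoxb6, a trunk gene next to Hoxb5 in the cluster, had 54.2, 78.8 and 50.6 in wild type and 45.9, 43.4, 27.6 and 40.8 in Y130A lung. Hoxb8 had 15.1, 7.22 and 15.5 in wild type and 4.93, 4.07, 4.83 and 5.44 in Y130A lung. All 3 were lower in each Y130A library than in each wild-type library, by -0.51, -0.62 and -1.16 on the same log2 scale (exact permutation p = 0.029 each, the smallest that 4 against 3 can give), and edgeR's adjusted p was 1.00 for each. The wild-type lungs of S226A litters, with 101, 93.0, 97.7 and 90.7 for Hoxa2 and 62.4, 25.2, 31.1 and 25.9 for Hoxb6, overlapped the Y130A range.

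**Figure D5:**
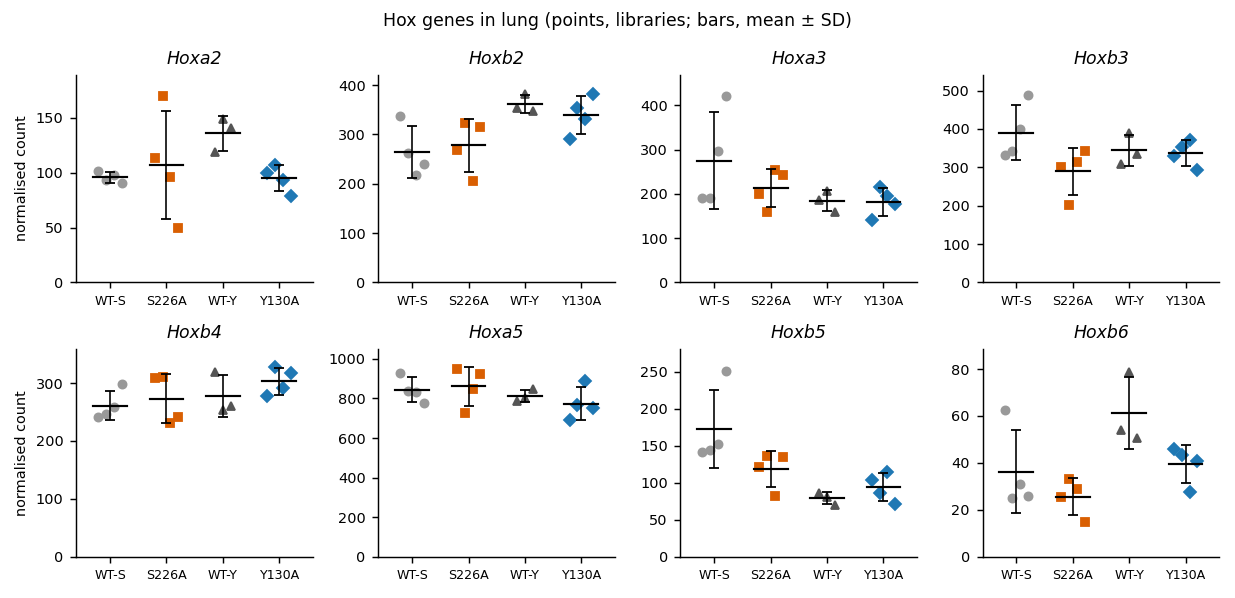
Normalised counts of 8 Hox genes in lung by group (WT-S and WT-Y, wild type of S226A and of Y130A litters; n = 4, except n = 3 for WT-Y); points are libraries, bars the mean ± SD. The 4 groups of Hoxa5 overlap between 689 and 947, while Hoxb5 is lower in every S226A lung than in its wild-type littermates, and Hoxa2 and Hoxb6 in every Y130A lung.

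Liver held few Hox reads and no Hox gene was called in either mutant, where 2.10% of all genes were called in S226A liver and 0.0770% in Y130A liver. Hoxb4 was the tested gene whose groups did not overlap in S226A liver, where 11.9% of all genes did not. It had 52.6, 34.96, 34.0 and 54.3 normalised counts in wild type and 19.5, 27.3, 7.31 and 31.4 in S226A, on 16 to 30 and 4 to 20 reads per library. The difference was -1.15 on the log2 scale of normalised count plus 1 (exact permutation p = 0.029, the smallest possible), with an edgeR log2 fold change of -1.03 ± 0.852 (SE; adjusted p = 0.505). Of 18 summed marker lists, 3 had groups that did not overlap in S226A liver, each lower than in wild type. Hepatocyte markers stood at 149700 to 171900 CPM against 176900 to 182100, those of hepatic stellate and mesenchymal cells at 904 to 1089 against 1126 to 1327, and those of pancreas at 10.5 to 14.16 against 14.19 to 18.4. Markers of blood stem and progenitor cells overlapped, at 267 to 303 CPM in S226A liver against 260 to 275 in wild type. The part of these lists in the Hoxb4 value was not tested. In Y130A liver no Hox gene had groups that did not overlap, beside 2.35% of all genes, and Hoxb4 had 34.0, 61.9, 52.4 and 29.8 normalised counts against 47.9, 31.8, 28.8 and 40.3 in wild type. Of the marker lists, 2 did not overlap there. Stellate and mesenchymal markers were lower in Y130A liver, at 1035 to 1101 against 1179 to 1344 CPM. Midbrain and cerebellum markers were higher, at 0.652 to 1.12 against 0 to 0.292 CPM.

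At an unadjusted p under 0.05, 3 Hox genes passed in S226A liver (Hoxa2, Hoxa7 and Hoxc5) and none in Y130A liver, beside 5 and 1 with DESeq2, which called none. The median log2 fold change over the 21 genes was 0.00 in S226A liver and 0.25 in Y130A liver, beside -0.01 and 0.00 over all genes. Hoxc5 had 12.7, 64.1, 0 and 9.06 normalised counts in wild type and 0 in each of the 4 S226A livers (adjusted p = 0.0640 with edgeR). Hoxa7 had 0, 0, 0 and 5.43 in wild type and 11.7, 13.7, 27.4 and 0 in S226A liver (adjusted p = 0.139 with edgeR). Over all genes 24.7% and 9.22% passed that p with edgeR, so the Hox share in S226A liver was below the background. Both Hoxc5 and Hoxa7 rest on few reads, at most 33 and 15 in a library. Hoxa9, the liver gene among the paralogues, had 0, 17.5, 21.2 and 50.7 normalised counts in wild type and 68.1, 13.7, 16.5 and 43.1 in S226A liver, and the groups overlapped.

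The Hoxc reads of liver came mostly from 2 libraries, wild type of S226A litters replicate 2 and Y130A replicate 1, which held 194 of the 292 Hoxc reads in 16 liver libraries (66.4%). Hoxc6, which is used in the skin and trunk, had 38.8 normalised counts in the first and 20.9 in the second, and 0 to 9.43 elsewhere. The same libraries held 1248 and 812 CPM of 10 squamous epithelium markers, against at most 11.2 CPM in the other 14 livers, and Krt5, a keratin of basal squamous cells, stood at 34.2 and 27.9 CPM there and at most 0.243 in the others. The part of that tissue in the Hoxc values was not tested. Without these libraries, an alternative chosen after the data were seen, 1 Hox gene passed an unadjusted p under 0.05 in S226A liver in place of 3, beside 24.3% of all genes.

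The difference between the effects of both alleles was tested as an interaction. No Hox gene was called in liver, lung or brain, where 1.47%, 0.0770% and 0.0474% of all genes were. At an unadjusted p under 0.05 the numbers of Hox genes were 3, 0 and 0 with edgeR and with DESeq2 alike, where 18.4%, 9.80% and 2.29% of all genes passed with edgeR. The wild-type embryos of both litter sets were compared as well, to show how far embryos of 1 genotype differ: none was called in liver, lung or brain, beside 0.414%, 1.62% and 0.101% of all genes. At an unadjusted p under 0.05 the numbers were 1, 0 and 0 with edgeR and 2, 0 and 0 with DESeq2, where 28.0%, 31.6% and 18.4% of all genes passed with edgeR.

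The nearest to a call between the wild-type sets was Hoxa2 in liver. It had 0, 5.83, 0 and 0 normalised counts in wild-type livers of S226A litters and 23.5, 43.1, 19.5 and 2.69 in those of Y130A litters, on 0 to 3 and 3 to 42 reads per library. The log2 fold change was 3.84 with a standard error of 1.15 (adjusted p = 0.0230), and in the fit without the 6 brain libraries it passed all criteria. Hoxb5 in lung, at 141 to 251 and 70.2 to 85.7 normalised counts, differed by -1.13 ± 0.266 between the sets when lungs were fitted alone (log2 fold change, SE; adjusted p = 0.0557). Of 18 summed marker lists 3 also had no overlap between these lung sets: heart muscle at 321 to 630 CPM in S226A litters against 940 to 1106 in Y130A litters, hepatic stellate and mesenchymal cells at 1341 to 2425 against 854 to 1144, and midbrain and cerebellum at 0.603 to 2.16 against 0.244 to 0.448. In liver there were 3 as well, those of hepatocytes (176900 to 182100 against 186500 to 217300 CPM), stomach and gut (3.07 to 4.86 against 5.03 to 9.49) and pancreas (14.19 to 18.4 against 19.2 to 31.1). Their part in the Hoxa2 and Hoxb5 values was not tested. In the same fits of lungs alone Hoxb5 differed by -0.55 ± 0.257 between S226A and wild type.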

How the data were processed

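Gene counts were made by the authors: reads trimmed with Trim Galore (0.6.5), checked with FastQC (0.11.5), aligned to GRCm38 with STAR (2.6.0b) and counted per GENCODE gene, and deposited as raw counts for 47 libraries. The strand setting of the counting is not given in the sources used here, and depth, 15722147 to 54885020 counts per library, limits genes of few reads. Gene positions and exon lengths come from the GENCODE annotation, and promoter sequences from RefSeq.

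From the deposited counts, 1 model over 12 groups of tissue, genotype and litter set was fitted with edgeR (4.0.16, R 4.3.3), TMM scaling and a filter on low counts (minimum count 10, total 15), which left 16892 genes. Standard errors are the size of the log2 fold change over the square root of F. Interactions had no limit on the standard error. Single genes were tested by two-sided exact permutation of log2(normalised count + 1). DESeq2 (1.42.0), RLE factors, no filter, fits of only the libraries compared, left-out libraries and blocks were alternatives. The edgeR test was checked on simulated counts with changes placed in genes of many reads. That check does not cover Hox genes of few reads or the split seen among brain libraries.

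All Hox genes could be named. Full values were given for the 5 highest per kilobase in each wild-type tissue and for each member called, and for other lists the members called against littermates and the 3 largest folds between tissues. Genes outside this rule that had groups without overlap, or an unadjusted p under 0.05, were named after their values were seen. The members, lists and tests were chosen with earlier results of these data known. Titles give the litter, which pairs mutants with wild types: deviations of the 23 pairs correlated at -0.0655 to 0.314, 11 of them above 0.1. The embryo pairs tissues, but in wild types of S226A litters lung replicate 4 came from another embryo than liver and brain replicate 4. The wild-type embryo whose lung the authors removed pairs liver and brain alone. Fits with the embryo as a block held the wild-type libraries alone. No replicate pair of 69 agreed within sampling noise (lowest chi-square per degree of freedom 4.17). P-values measure the spread between embryos of few litters. Some genes that the rule names are not reported here, while counts and sums include them.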

Additional observations from a re-analysis of the deposited data

Results flagged for a closer look

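Dixon's test, on log2(normalised count + 1), was run on 123 sets of values, each a Hox gene with a mean of at least 10 normalised counts in a group of 4 libraries. In 14 of them 1 library stood far from the others, where chance gives about 1 in 20. S226A brain replicate 4, among the 6 brain libraries with low hindbrain markers, was the lowest of its group for 7 genes: Hoxa4 at 1.22, Hoxa5 at 0, Hoxb2 at 7.32, Hoxb3 at 2.44, Hoxb5 at 0, Hoxc4 at 0 and Hoxc5 at 3.66 normalised counts, where the nearest other library held 47.3, 265, 77.3, 136, 94.1, 74.1 and 41.5. Wild-type brain of Y130A litters replicate 4, another of the 6, was the lowest for Hoxb2 at 3.47 (next 63.3) and Hoxb3 at 11.6 (next 164).

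In wild-type lung of S226A litters replicate 4 was the highest for Hoxb5 at 251 normalised counts (next 152) and the lowest for Hoxd8 at 4.86 (next 37.2). In liver the libraries that stood apart were low: Hoxa3 at 12.5 in wild type of Y130A litters replicate 4 (next 36.0), Hoxb2 at 21.4 in wild type of S226A litters replicate 2 (next 38.1) and Hoxb2 at 7.33 in Y130A replicate 3 (next 21.98).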

How the results depend on the processing

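Counts of Hox genes called. Between lung and brain (11) the count was 7 with the embryo as replicate block and 5 within the wild types of either litter set. Between lung and liver (11) it was 4 within the S226A and 6 within the Y130A litter set. Between brain and liver (6) it was 11 without the limit on the standard error, 14 at adjusted p below 0.05 alone, 2 with only the libraries compared, 1 with the embryo block, 0 and 1 within the S226A and Y130A litter sets, and 12 without the 6 brain libraries (chosen after seeing the data). Between lung and liver the embryo block gave 9. Leaving out 1 library at a time gave 10 to 11, 9 to 11 (9 without liver wild type of S226A litters replicate 4) and 3 to 6 (3 without brain wild type of S226A litters replicate 3 or 4). Every mutant comparison and interaction stayed at 0 calls, with the litter as replicate block (0) and under the other alternatives run, as did the wild-type lung and brain sets; the wild-type liver sets gave 1, Hoxa2, at adjusted p below 0.05 alone and in the fit without the 6 brain libraries.

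Of 723 recomputed values of single genes, 35 lost their call with 1 library left out and 58 in other settings. Besides Hoxc4 and Hoxa9, Hoxa4 (1.91 to 2.02) and Hoxb3 (1.42 to 1.60) between brain and liver were lost without brain wild type of S226A litters replicate 3 or 4 or of Y130A litters replicate 3, and without liver wild type of S226A litters replicate 1 (Hoxa4) or 3 (Hoxb3). Hoxa2 (4.53) was lost there without liver wild type of S226A litters replicate 2, Hoxa7 (6.21) and Hoxd8 (5.11) between lung and liver without liver wild type of S226A litters replicate 4, and Hoxb3 (1.46) between lung and brain without brain wild type of S226A litters replicate 2. The difference of Hoxa5 between brain and liver turned its direction at a pseudocount of 0.1 (exact permutation p = 0.978). With only exon bases unshared on either strand Hoxb3 stood at 0.593 CPM per kilobase in liver, 6.27 in lung and 2.05 in brain, and Hoxb2 at 4.08 in lung. Without TMM, Hoxa5, Hoxb3 and Hoxb4 in lung stood at 17.5, 3.45 and 4.15 CPM per kilobase, and the summed CPM of Hoxa was 3.58 in liver and 55.7 in lung and that of Hoxb 45.7 in lung. Where not said, the cause was not tested.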

Other observations

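Genes that act with or upon the Hox clusters were described from lists. Of 9 TALE homeodomain partners, which bind DNA with Hox proteins, 7 were higher and 0 lower in wild-type lung than liver, 6 were higher and 0 lower in brain than liver, and 1 was higher and 3 lower in lung than brain. The median log2 fold changes of the list were 1.66, 2.37 and -0.60, beside 0.08, 0.08 and -0.02 over all genes.

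The shares of all genes called were 48.8% between lung and brain, 42.6% between lung and liver and 56.1% between brain and liver. Of 15 genes of retinoic acid supply, breakdown and reception, 5 were higher and 4 lower in lung than brain, 6 higher and 2 lower in lung than liver, and 7 higher and 4 lower in brain than liver. Of 22 Polycomb genes 0 were higher and 3 lower in lung than brain, 2 higher and 3 lower in lung than liver, and 4 higher and 3 lower in brain than liver. Of 13 trithorax, MLL and related enzymes 1 was higher in lung than brain, none was called between lung and liver and 3 were lower in brain than liver. Between the wild-type lungs of both litter sets 4 of the 13 were called, all lower in Y130A litters and beside 1.62% of all genes: Kdm6b (-1.84 ± 0.287), Kmt2d (-1.81 ± 0.305), Dot1l (-1.21 ± 0.210) and Kmt2a (-1.19 ± 0.177; log2 fold change, SE). Lower was also the main direction over all genes called there, 247 lower and 26 higher. Heart muscle, stellate and mesenchymal, and midbrain and cerebellum markers did not overlap between these lung sets. Their part in these values was not tested. Kmt2d was also the one called between lung and brain (1.46 ± 0.199). These 4 enzymes lie outside the naming rule and were chosen after their values were seen. Of 8 genes of the ParaHox list 4 were tested, Evx1, Evx2, Gsx1 and Gsx2. They were higher in brain, but a gene seen in brain alone passes the filter on low counts through brain, so this direction is not independent of the filter. Of 5 tested hindbrain regulators of Hox genes, 5 were called between lung and brain, 4 between lung and liver and 3 between brain and liver. Among the largest log2 fold changes (SE) of the called genes of these lists were those of Gbx2 (-9.25 ± 0.740) and Evx2 (-7.64 ± 0.568) for lung against brain. For lung against liver they were those of Crabp1, a retinoic acid carrier (6.48 ± 0.689), Gbx2 (-5.83 ± 0.856) and Aldh1a1, an enzyme of retinoic acid synthesis (4.15 ± 0.161). For brain against liver they were those of Crabp1 (10.5 ± 0.510) and Evx2 (8.67 ± 0.621).

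Against wild-type littermates Cyp26b1, which breaks down retinoic acid, was called in S226A liver at -3.57 ± 0.869 (adjusted p = 0.00400, edgeR). The percentage of all genes called there was 2.10. No gene of these lists was called in the other 5 mutant comparisons.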
